A study of Mus musculus with 18 samples.

Results

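Gene expression was compared between knockout clone 2 and wild-type (WT) cells of 6419c5, a mouse pancreatic tumor cell line, by RNA sequencing of tumor cells sorted from tumors implanted under the skin. The comparison takes the 3 libraries of clone 2, in which the gene Kdm3a was knocked out, and the 3 WT libraries. These are 6 of the 18 libraries of a study that also covered clone 1 of the same line and another line, 6694c2, with its own WT and 2 knockout clones. The libraries of each group were taken by name. Clone 2 was looked at alone because it was already known to hold few macrophage transcripts. All groups carry the strain label C57BL/6 and none was treated. The labels give neither the way the gene was knocked out, the marker of the sort nor the host animals, and they do not say that replicates are separate tumors. The p-values therefore measure the spread between libraries, which may be technical. Clone 2 is 1 clone, and its 3 libraries measure that clone. Values are in TPM, a length-corrected share of all transcripts, and of 24493 gene symbols 13112 averaged 1 TPM or more across these 6 libraries and were tested.

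Kdm3a encodes a demethylase that removes methyl groups from lysine 9 of histone H3, a mark of silent chromatin. The enzyme works as a coactivator of transcription, and its own gene is induced by low oxygen. Interferon gamma, a cytokine made by T cells and natural killer cells, acts through STAT factors and IRF1, and the genes it induces include guanylate-binding proteins, immunity-related GTPases and chemokines that attract T cells. Many of those genes carry a STAT site (GAS) or an interferon-stimulated response element (ISRE) close to their start.

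The promoters of 6 genes of the interferon gamma list are shown because most of that list rose in clone 2 and because 4 of them share an arrangement of both motifs. Each line is the last 100 bases before the RefSeq start of the gene, 5′ to 3′ on the strand of the gene, and capitals mark matches to TTCNNNGAA (GAS) or GAAANNGAA (ISRE core) on either strand.

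Tgtp2 (GRCm38.p6, chr11:49064213-49064312, minus strand): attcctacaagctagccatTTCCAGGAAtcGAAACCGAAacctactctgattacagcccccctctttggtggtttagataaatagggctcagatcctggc
Tgtp1 (GRCm38.p6, chr11:48992247-48992346, minus strand): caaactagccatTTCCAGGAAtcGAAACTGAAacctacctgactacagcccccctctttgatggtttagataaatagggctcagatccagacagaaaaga
Igtp (GRCm38.p6, chr11:58199456-58199555, plus strand): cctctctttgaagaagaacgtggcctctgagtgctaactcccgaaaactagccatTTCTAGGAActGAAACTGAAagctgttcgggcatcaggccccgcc
Irgm2 (GRCm38.p6, chr11:58214877-58214976, plus strand): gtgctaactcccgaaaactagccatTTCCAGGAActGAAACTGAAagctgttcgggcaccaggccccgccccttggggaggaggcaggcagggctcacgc
Gbp2 (GRCm38.p6, chr3:142620563-142620662, plus strand): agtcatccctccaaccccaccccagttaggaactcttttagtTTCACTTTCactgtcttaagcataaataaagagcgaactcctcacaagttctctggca
Gbp3 (GRCm38.p6, chr3:142559944-142560043, plus strand): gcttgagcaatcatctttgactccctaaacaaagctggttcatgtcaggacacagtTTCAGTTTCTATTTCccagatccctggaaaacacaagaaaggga

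In Tgtp2, Tgtp1, Igtp and Irgm2 the GAS match ended 2 bases before the ISRE match, and in Gbp2 and Gbp3 the ISRE core lay on the opposite strand. Over the 250 bases before the start, the ISRE core was in 11 of 16 windows (68.8%) of called interferon gamma genes, against 6.25% of the 12680 windows of all tested genes with a RefSeq promoter. The GAS motif was in 7 of these 16 windows (43.8%), against 6.12% of all windows. Over the whole list, called or not, the ISRE core was in 13 of 20 windows (65.0%) and the GAS motif in 8 (40.0%). The called genes supply 16 of these 20 windows, so the shares of the called genes and of the whole list could hardly differ. Whether the motifs are tied to the call was not tested. The ISRE core was in 9.67% of the windows of all genes called higher and in 5.66% of those called lower. Windows were found for 9996 of the 13112 tested genes, and a match of letters is not a measured binding site.

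The depth of the libraries is unknown because TPM hold no read numbers. The number of genes at 1 TPM or more was 12766 to 13123 in WT and 12398 to 12852 in clone 2. An entry for a small RNA, Mir6236, took 8.32% to 16.6% of all TPM in WT and 8.20% to 17.2% in clone 2. Across the tested genes, libraries of the same group correlated at 0.945 to 0.985 and libraries of different groups at 0.894 to 0.946 (Pearson, log scale, across genes). The keratin Krt8 had 3962, 4339 and 3508 TPM in WT and 4500.3, 4486 and 4176 TPM in clone 2, so both groups carried epithelial RNA, and 9 of 10 acinar markers were below the filter.

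Macrophage transcripts were lower in clone 2. The macrophage index, the mean log2(TPM + 1) of 10 macrophage genes, was 6.34, 7.09 and 9.003 in the WT libraries and 4.35, 4.001 and 4.92 in those of clone 2. All 3 clone 2 libraries lay below all 3 WT libraries, by 3.05 on average, with the smallest p that 3 against 3 can give (exact two-sided permutation p = 0.1). The clone was taken with its low macrophage transcripts known, so this p is not independent evidence of the difference. C1qa, a subunit of complement C1q made by macrophages, had 151, 299 and 1235 TPM in WT and 37.6, 24.7 and 52.9 TPM in clone 2, so macrophage RNA was low in clone 2 but not absent. Of the 20 macrophage markers, 15 were called lower and 0 higher, with a median change of -2.95 on the log2(TPM + 1) scale, which is used for all changes here. Their summed level was 2530.0 to 15298 TPM in WT and 602 to 1022 TPM in clone 2. The count called lower was 16, 3 and 16 without WT replicates 1, 2 and 3, and 0, 2 and 0 without clone 2 replicates 1, 2 and 3.

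**Figure D1:**
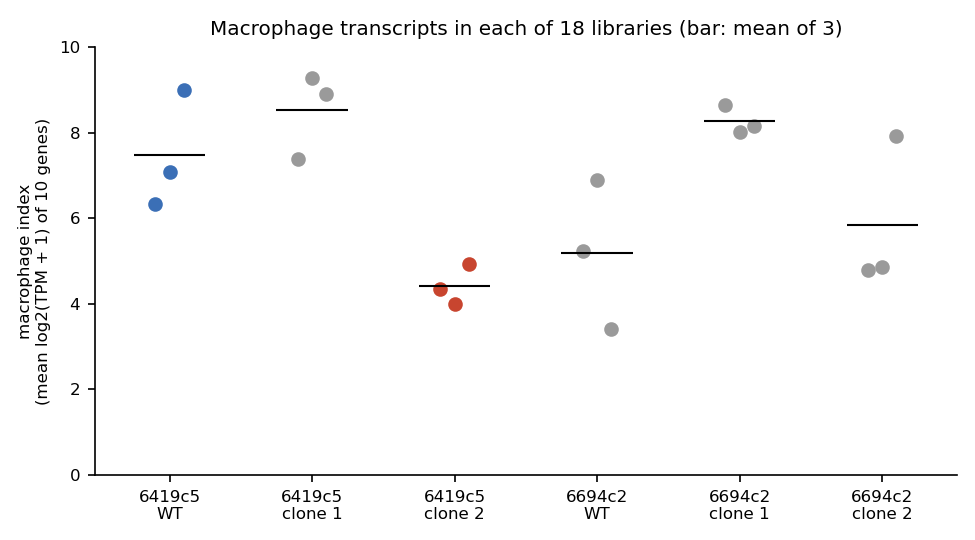
Macrophage index (mean log2(TPM + 1) of 10 macrophage genes, vertical axis) in each of the 18 libraries, by line and group, with a bar at the mean of 3 libraries. The 3 libraries of 6419c5 clone 2 lie below the 3 WT libraries of the line, and below its clone 1, whose lowest library is at 7.39.

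To read other genes apart from these, a gene was called macrophage-linked when its log2(TPM + 1) followed the index with Pearson r of at least 0.7 over the 12 libraries outside the comparison, after group means were removed. By this rule 1238 of the 13112 tested genes (9.44%) were macrophage-linked. Their median change was -0.33, against 0.02 for the others. The rule also takes in epithelial genes such as Cldn4 and Spdef, so it is a filter and not a cell type. T and natural killer cell markers summed to 3.93 to 11.5 TPM in WT and 7.81 to 11.8 TPM in clone 2, and none of the 4 tested was called. Nkg7 was listed at 0, 0 and 0 TPM in WT and 0, 1.44 and 0.888 TPM in clone 2. All 6 B cell markers in the table were below the filter, and none of the 5 tested endothelial markers was called. Of 19 fibroblast markers, 4 were called lower and 1, Fbln1 (0.72), higher, with sums of 557 to 931 TPM in WT and 501 to 537 TPM in clone 2. Lower fibroblast calls numbered 1, 0 and 2 without WT replicates 1, 2 and 3, and 0, 0 and 0 without clone 2 replicates 1, 2 and 3, and 0 under quantile normalization. Fewer cells of a type and less RNA per cell cannot be told apart in bulk libraries.

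The transcript of the targeted gene was lower in clone 2 but was still present. Kdm3a (chromosome 6, 71588972 to 71632990, minus strand, mm10) had 38.2, 24.1 and 32.9 TPM in WT and 12.3, 18.8 and 13.5 TPM in clone 2. The groups did not overlap, and the gene was called lower (log2 change -1.04, SE 0.22, limma adjusted p = 0.0354). For Kdm3a in clone 2 against WT, the call was lost without WT replicate 1 (-0.8998, limma adjusted p = 0.0723), WT replicate 3 (-1.003, limma adjusted p = 0.0921), clone 2 replicate 1 (-0.92, limma adjusted p = 0.132) or clone 2 replicate 3 (-0.99, limma adjusted p = 0.132). In 6694c2 the mean change of both knockout clones was -0.75 (limma adjusted p = 0.0274). A gene total in TPM does not show whether the transcript is intact.

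In all, 686 genes (5.23% of those tested) were called higher and 969 (7.39%) lower in clone 2, at a limma adjusted p under 0.05, and 3753 had an unadjusted p under 0.05. Among them, 178 of the higher and 468 of the lower genes changed by at least 1 on the log2 scale, and 23 and 188 by at least 2. In all 686 higher and all 969 lower genes the groups did not overlap, so lack of overlap adds nothing to a call. The shares of 5.23% and 7.39% are the base for the list counts below. Lists and their members were chosen with earlier results of these data known, so a count above this base may follow in part from that choice. The median change over all 13112 genes was 0.0017. Macrophage-linked genes made up 206 of the 969 lower genes (21.3%) and 61 of the 686 higher genes (8.89%). The balance of directions depended on scaling: 41.5% of calls were higher with TPM as deposited and 52.7% after quantile normalization (755 higher, 677 lower). Single libraries moved the counts, which were 583 higher and 806 lower without WT replicate 1, 339 and 461 without WT replicate 2, and 442 and 762 without WT replicate 3. They were 132 and 226, 236 and 430, and 117 and 224 without clone 2 replicates 1, 2 and 3. With the macrophage index as a covariate, 1 gene was called higher and 15 lower. The index separates the groups, so in this fit the clone and the index cannot be told apart.

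**Figure D2:**
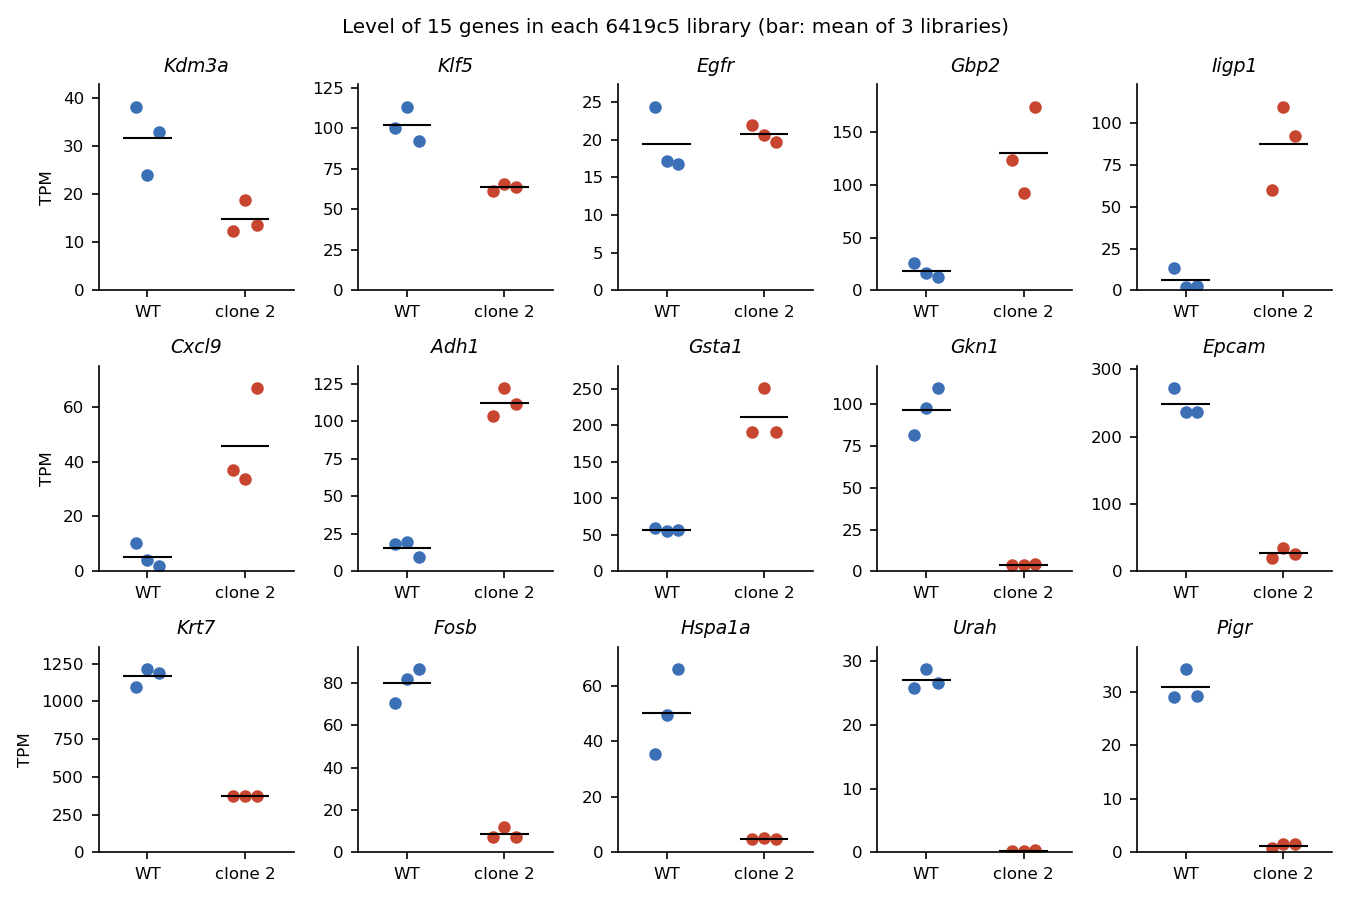
TPM (vertical axis) of 15 genes in each WT and clone 2 library of 6419c5; points are libraries and bars are means of 3. Egfr overlaps between the groups, and the other genes do not overlap.

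Interferon gamma genes rose. Of the 27 genes on the list, all of them tested, 21 were called higher and 0 lower, and their median change was 1.796. Iigp1, a GTPase that attacks the vacuoles of intracellular pathogens (chromosome 18, 60376027 to 60392634, plus strand), had 13.5, 2.02 and 2.61 TPM in WT and 60.3, 110.1 and 92.7 TPM in clone 2 (log2 change 3.99, SE 0.61, limma adjusted p = 0.01401). Gbp2, a guanylate-binding protein (chromosome 3, 142620602 to 142638008, plus strand), had 25.6, 16.8 and 12.97 TPM in WT and 123, 92.5 and 174 TPM in clone 2 (log2 change 2.76, SE 0.31, limma adjusted p = 0.00493). Every clone 2 library was above every WT library for both genes. Of the GTPase genes with the joined motifs shown above, Tgtp2 rose from 3.51 ± 3.32 to 38.4 ± 9.67 TPM (SD, n = 3; log2 change 3.33, limma adjusted p = 0.0122). Tgtp1 rose by 2.87, Igtp by 1.796 and Irgm2 by 1.37. These families hold near-identical genes, and their TPM depend on how the quantification split shared reads.

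Chemokines that draw T cells rose with them. Cxcl9 had 10.3, 4.02 and 1.903 TPM in WT and 36.8, 33.5 and 66.9 TPM in clone 2 (log2 change 3.02, SE 0.53, limma adjusted p = 0.0204), and Cxcl10 rose by 1.92 from 9.65 ± 3.08 to 39.6 ± 14.2 TPM. Cxcl11, which binds the same receptor, stood at 1.66 ± 1.17 TPM in WT and 3.396 ± 0.847 TPM in clone 2 and was not called (limma adjusted p = 0.185). Ubd, a ubiquitin-like modifier (chromosome 17, 37193892 to 37196095, plus strand), had 0.974, 0.238 and 0.692 TPM in WT and 13.8, 11.996 and 18.4 TPM in clone 2 (log2 change 3.27, SE 0.25, limma adjusted p = 0.00144). No WT library reached any clone 2 library for Ubd or Cxcl9. Ido1, which degrades tryptophan, rose by 2.32, from 0.869 ± 0.3997 to 8.295 ± 1.58 TPM.

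Among regulators of the response, Irf1, the transcription factor that carries the signal on, had 55.9, 57.9 and 56.9 TPM in WT and 82.8, 83.99 and 98.7 TPM in clone 2 (log2 change 0.62, SE 0.09, limma adjusted p = 0.0125). Cd274, which encodes PD-L1, had 6.89, 4.65 and 6.82 TPM in WT and 5.01, 5.35 and 6.89 TPM in clone 2, so the groups overlapped (log2 change -0.07, 95% interval -0.55 to 0.41, limma adjusted p = 0.872). Irf8, a factor also made by macrophages, was at 10.1 ± 7.02 TPM in WT and 2.17 ± 1.04 TPM in clone 2 and was not called (limma adjusted p = 0.0731). Of the 27 genes, 2 were macrophage-linked, Socs1 and Batf2, while the macrophage markers were lower in clone 2. The number called higher was 22, 17 and 18 without WT replicates 1, 2 and 3, and 11, 15 and 11 without clone 2 replicates 1, 2 and 3. With the macrophage index as a covariate it was 0.

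**Figure D3:**
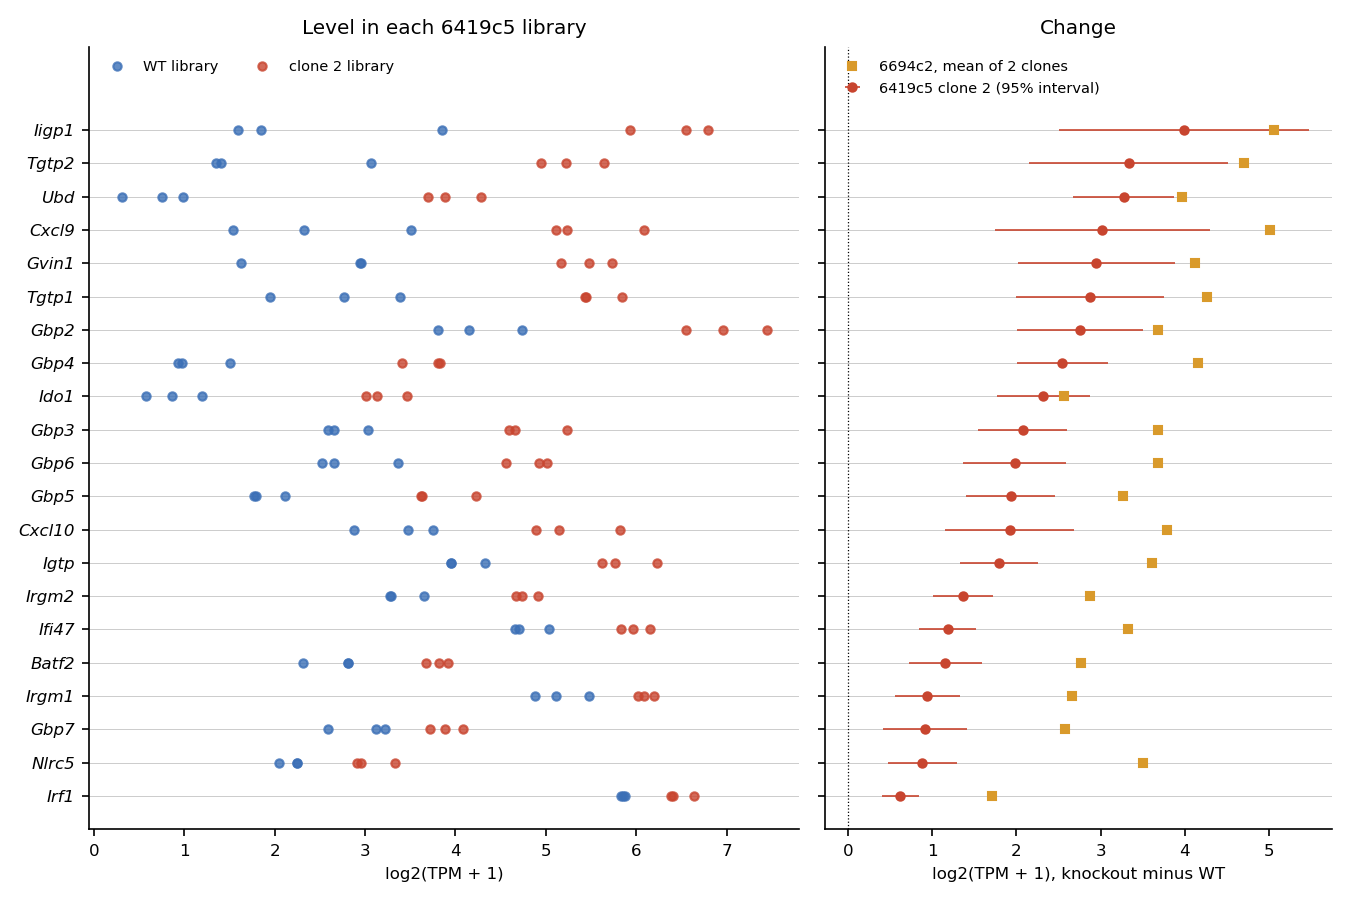
The 21 interferon gamma genes called higher in clone 2: left, log2(TPM + 1) in each WT and clone 2 library; right, the log2 change of clone 2 against WT with its 95% interval, and the mean change of the knockout clones of 6694c2. In all 21 the clone 2 libraries lie above the WT libraries, as in every gene called higher, and the 6694c2 change is also above 0.

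In 6694c2, whose libraries are separate, 27 of the 27 genes were called higher in the knockouts and 0 lower, with a median of 3.33. That comparison called 10.3% of all genes higher and 4.33% lower. The macrophage index there was 3.41 to 6.90 in WT, 8.005 to 8.64 in clone 1 and 4.78 to 7.92 in clone 2. Within 6419c5, 24 of the 27 genes were called lower in clone 2 than in clone 1, with a median of -1.04, beside 18.4% of all genes called lower and 7.65% higher in that comparison. Gbp2 changed by 2.76 in clone 2 and by 3.91 in clone 1, both against the same WT libraries, and Cxcl9 by 3.02 and 4.59. Iigp1 differed by 0.11 between the clones (limma adjusted p = 0.893) and Gvin1 by -0.02 (limma adjusted p = 0.979). Clone 1 also had the higher macrophage index, at 7.39 to 9.27, and its part in the result was not tested.

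Part of the antigen presentation genes rose. Of 24 genes of MHC class I presentation, 7 were called higher and 1 lower, with a median of 0.47, and 12 of the 24 were macrophage-linked. Nlrc5, the activator of class I genes, had 3.76, 3.14 and 3.73 TPM in WT and 6.75, 6.53 and 9.05 TPM in clone 2 (log2 change 0.88, SE 0.17, limma adjusted p = 0.0264). The peptide transporter Tap1 rose by 0.92 and the class I genes H2-Q4 and H2-T23 by 1.19 and 0.93. H2-K1 had 628, 561 and 673 TPM in WT and 966, 798 and 1267 TPM in clone 2, with no overlap, but it missed the threshold (log2 change 0.68, SE 0.17, limma adjusted p = 0.053998). B2m, the light chain of class I, was at 1043 ± 336 TPM in WT and 1616 ± 239 TPM in clone 2 (limma adjusted p = 0.1603). Calr, a chaperone of the endoplasmic reticulum, was the gene that fell, from 984 ± 49.6 to 658 ± 55.1 TPM (log2 change -0.58, limma adjusted p = 0.0115). The number called higher was 5, 1 and 4 without WT replicates 1, 2 and 3, and 0, 5 and 1 without clone 2 replicates 1, 2 and 3. H2 genes form a family of near-copies whose reads are hard to assign.

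Ciita, the activator of MHC class II genes, rose from 2.22, 1.55 and 2.32 TPM in WT to 8.36, 5.42 and 12.95 TPM in clone 2 (log2 change 1.65, SE 0.304, limma adjusted p = 0.0237). H2-Aa, a class II gene it controls, had 52.2, 74.5 and 197 TPM in WT and 134, 69.3 and 225 TPM in clone 2, which overlap (limma adjusted p = 0.683). Of 11 class II genes tested 2 were called higher, Ciita and H2-DMb1 (1.02). Both were macrophage-linked, as were 7 of the 11. Class II genes called higher numbered 1, 0 and 0 without WT replicates 1, 2 and 3, and 0, 2 and 0 without clone 2 replicates 1, 2 and 3.

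Type I interferon genes respond to interferon alpha and beta. Of 35 tested, 7 were called higher, such as Ifit1 (0.97) and Usp18 (0.63), and 2 lower, Trim30a (-1.49) and Oasl1 (-0.35), with a median of 0.37. Of the 35, 11 were macrophage-linked, both lower ones among them. Isg15, a standard marker, had 12.3, 28.6 and 21.004 TPM in WT and 25.6, 24.6 and 39.3 TPM in clone 2, which overlap (limma adjusted p = 0.3301). The number called higher was 5, 2 and 5 without WT replicates 1, 2 and 3, and 0, 2 and 0 without clone 2 replicates 1, 2 and 3, and that called lower was 0, 0 and 1 without WT replicates 1, 2 and 3, and 0, 0 and 0 without clone 2 replicates 1, 2 and 3. Under median-of-ratios scaling 3 were called higher and 1 lower, and under quantile normalization 2 and 0. In 6694c2, 34 of the same genes were called higher, beside 10.3% of all tested genes.

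**Figure D4:**
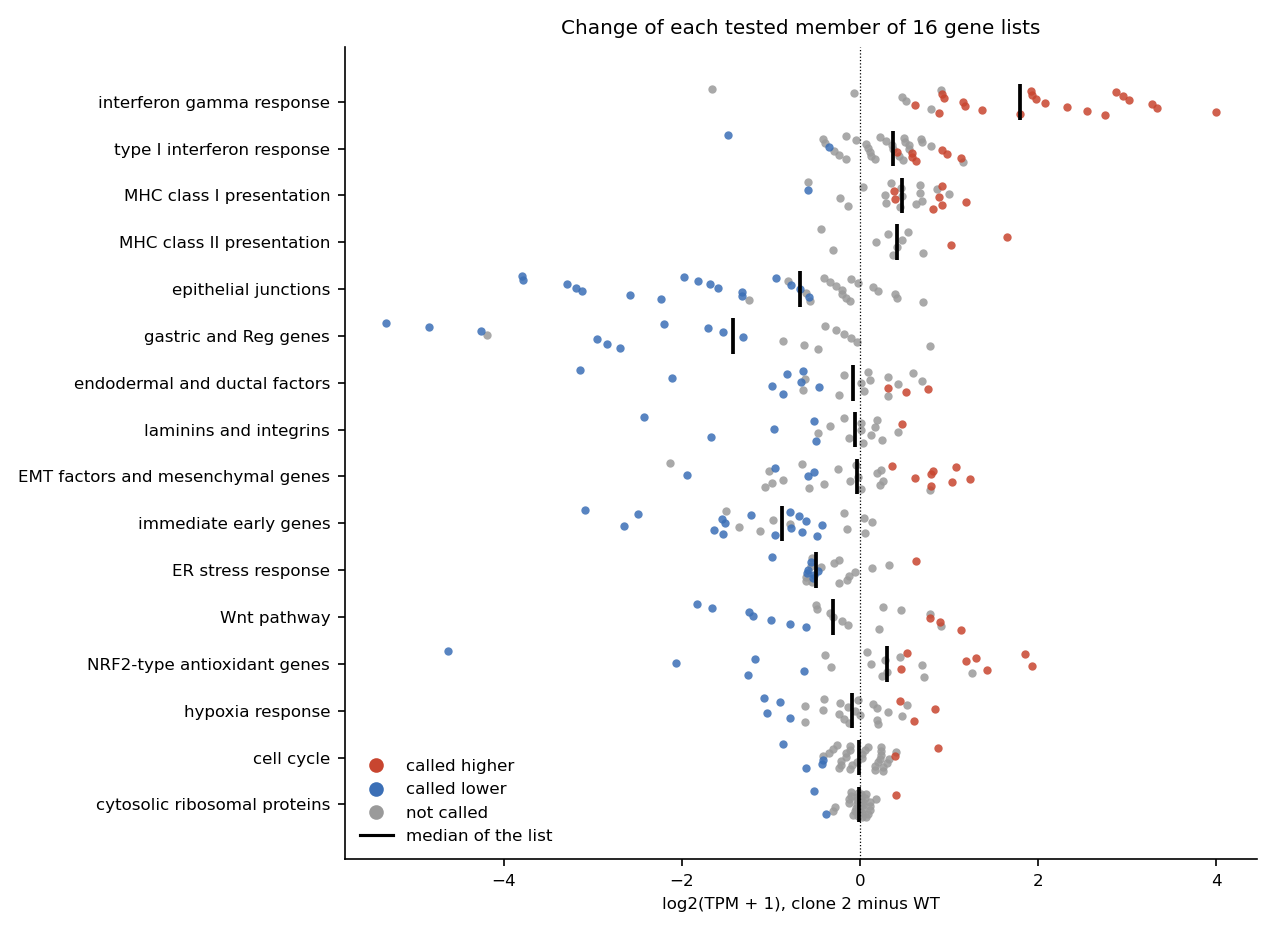
Log2 change (horizontal axis, clone 2 minus WT on the log2(TPM + 1) scale) of every tested member of 16 gene lists; points are genes, coloured by the limma call, and bars are list medians. The interferon gamma list has its median at 1.796, gastric and Reg genes at -1.43, immediate early genes at -0.87 and epithelial junctions at -0.67.

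Genes of epithelial junctions fell. Of 35 tested genes 17 were called lower and 0 higher, with a median of -0.67, and 4 of the 35 were macrophage-linked. Epcam, an adhesion protein used as a marker of epithelial tumor cells, had 273, 237 and 236 TPM in WT and 20.2, 34.1 and 26.2 TPM in clone 2 (log2 change -3.19, SE 0.19, limma adjusted p = 0.000688). Among the claudins, the strands of tight junctions, Cldn4 had 15.7, 15.2 and 14.6 TPM in WT and 0.229, 0.117 and 0.162 TPM in clone 2 (log2 change -3.79, SE 0.14, limma adjusted p = 0.0002602). Clone 2 was below WT in every library for both. Cldn7 fell from 30.9 ± 2.61 to 1.402 ± 0.804 TPM (log2 change -3.79) and Cldn3 from 14.3 ± 2.38 to 0.659 ± 0.756 TPM (-3.29). Elf3, a transcription factor of epithelia, fell by 1.597, and the membrane protease St14 and its inhibitor Spint1 fell by 2.59 and 3.12. The number called lower was 13, 13 and 15 without WT replicates 1, 2 and 3, and 12, 14 and 12 without clone 2 replicates 1, 2 and 3, and 1 with the macrophage index as a covariate.

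Not all epithelial genes were called. Cdh1, which encodes E-cadherin, had 504, 470.1 and 409 TPM in WT and 421, 434 and 421 TPM in clone 2 (log2 change -0.11, 95% interval -0.33 to 0.11, limma adjusted p = 0.499). Krt7, a keratin of ductal epithelium, had 1092, 1217 and 1185 TPM in WT and 373, 374 and 371 TPM in clone 2 (log2 change -1.64, SE 0.06, limma adjusted p = 0.0002602). The clone 2 libraries of Krt7 were nearly equal and below WT, while Krt8 was not called (0.16, limma adjusted p = 0.326) and Krt20 rose by 0.39. In 6694c2, 15 of the same 35 junction genes were called lower in the knockouts and 0 higher, beside 4.33% and 10.3% of all tested genes. Epcam changed there by -3.03 and Cldn4 by -0.32. The difference between the lines was -0.16 for Epcam (limma adjusted p = 0.8295) and -3.47 for Cldn4 (limma adjusted p = 2.27e-05), in a test that called 21.6% of all genes.

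Mesenchymal genes moved in both directions. Of 30 genes of the epithelial-mesenchymal transition 8 were called higher and 4 lower, with a median of -0.03. Axl, a receptor tyrosine kinase, rose from 138, 128 and 122 TPM to 282, 267 and 273 TPM (log2 change 1.08, SE 0.07, limma adjusted p = 0.00109). Zeb1, a repressor of epithelial genes, rose by 0.83, Cdh2 (N-cadherin) by 0.7997, Twist1 by 0.79 and Vim (vimentin) by 0.36. The YAP targets Ctgf and Cyr61 fell by 0.96 and 0.58. The number called higher was 5, 4 and 5 without WT replicates 1, 2 and 3, and 2, 2 and 2 without clone 2 replicates 1, 2 and 3.

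Laminin chains of the basement membrane that anchors epithelia fell. Lama3 had 5.43, 5.07 and 5.78 TPM in WT and 0.245, 0.0518 and 0.313 TPM in clone 2 (log2 change -2.42, SE 0.18, limma adjusted p = 0.001398), close to 0 in every clone 2 library. Lamb3 fell by 1.67. The integrin chain Itga3, which binds laminins, fell from 234 ± 19.2 to 167 ± 17.1 TPM (log2 change -0.49, limma adjusted p = 0.0355). Of 18 laminin and integrin genes 5 were called lower and 1, Itgb5 (0.47), higher, against 9 and 0 in 6694c2. Of all tested genes, 4.33% were called lower and 10.3% higher in 6694c2. The number called lower was 4, 3 and 5 without WT replicates 1, 2 and 3, and 3, 3 and 3 without clone 2 replicates 1, 2 and 3.

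Genes of the stomach-like programme and the Reg family fell. Of 20 tested genes 10 were called lower and 0 higher, with a median of -1.43. Gkn3 (chromosome 6, 87383256 to 87388935, minus strand) had 111, 175 and 173 TPM in WT and 1.69, 3.49 and 3.45 TPM in clone 2 (log2 change -5.32, SE 0.27, limma adjusted p = 0.000501). Gkn1 (chromosome 6, 87345650 to 87350942, minus strand) had 81.6, 97.7 and 110.0 TPM in WT and 3.67, 4.12 and 4.41 TPM in clone 2 (log2 change -4.26, SE 0.14, limma adjusted p = 0.0002304). Both are gastrokines, secreted proteins of the stomach lining, and both were far below WT in all 3 clone 2 libraries. The pepsinogen gene Pgc fell by 2.84, the mucins Muc4 and Muc1 by 1.71 and 1.31, and Agr2, which helps to fold mucins, by 2.69.

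Ctse, a gastric protease, was at 582 ± 42.6 TPM in WT and 482 ± 6.55 TPM in clone 2 and was not called (limma adjusted p = 0.0634), nor were Cym, Vsig1 and Anxa10. Reg3b, an antibacterial lectin, had 109, 61.2 and 50.9 TPM in WT and 0.415, 7.62 and 0.245 TPM in clone 2 (log2 change -4.84, SE 0.77, limma adjusted p = 0.0158) and was macrophage-linked (r = 0.74 over 12 libraries). Reg1 had 127, 68.2 and 56.05 TPM in WT and was uneven in clone 2, with 0.408, 29.4 and 0.961 TPM, and was not called (limma adjusted p = 0.0659). Tff2, a trefoil factor of mucus, fell by 1.54 against WT, and clone 2 stood above clone 1 by 3.03 (limma adjusted p = 2.30e-06). Against the same WT libraries clone 1 changed by -1.99 for Gkn1, -3.06 for Gkn3 and -4.605 for Reg3b (limma adjusted p = 0.0129, 0.000159 and 0.000131). Clone 2 differed from clone 1 by -2.27, -2.26 and -0.23 for these genes (limma adjusted p = 0.00161, 0.00077 and 0.803). The macrophage index was 7.39 to 9.27 in clone 1 and 6.34 to 9.003 in WT, and its tie to Reg3b within this line was not tested. In 6694c2, 2 of the 20 genes were called higher and 4 lower, beside 10.3% and 4.33% of all tested genes. Gkn1 and Gkn3 changed there by 0.85 and 0.19, and the difference between the lines was -5.11 and -5.51 (limma adjusted p = 4.28e-05 and 7.04e-06). The number called lower was 9, 9 and 9 without WT replicates 1, 2 and 3, and 7, 12 and 6 without clone 2 replicates 1, 2 and 3.

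Transcription factors of pancreas and gut endoderm split. Of 24 tested 8 were called lower and 3 higher, with a median of -0.08. Foxa1, a pioneer factor of endoderm, had 6.41, 5.43 and 5.18 TPM in WT and 0.464, 0.747 and 0.432 TPM in clone 2 (log2 change -2.11, SE 0.18, limma adjusted p = 0.00215), with no overlap. Spdef, a factor of mucous cells, fell from 11.04 ± 0.895 to 0.367 ± 0.203 TPM (log2 change -3.15). Sox9, a factor of the duct, fell by 0.87. Foxa2, the paralog of Foxa1, rose from 50.6 ± 2.202 to 63.02 ± 0.896 TPM (0.31, limma adjusted p = 0.0452), and Gata6 rose by 0.52. Pdx1 and Hnf4a were not called (0.31 and 0.11, limma adjusted p = 0.192 and 0.558). The number called lower was 5, 6 and 8 without WT replicates 1, 2 and 3, and 2, 4 and 2 without clone 2 replicates 1, 2 and 3, and that called higher was 1, 2 and 1 without WT replicates 1, 2 and 3, and 0, 0 and 0 without clone 2 replicates 1, 2 and 3.

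Klf5, a transcription factor of epithelial progenitors (chromosome 14, 99298691 to 99315036, plus strand), had 100.2, 113 and 92.2 TPM in WT and 60.98, 65.8 and 63.99 TPM in clone 2, with no overlap (log2 change -0.67, SE 0.097, limma adjusted p = 0.0118). The call was lost without clone 2 replicate 1 or replicate 3. In 6694c2 Klf5 changed by -0.702. Of 11 KLF genes 3 were called lower, Klf5, Klf16 (-0.57) and Klf7 (-0.57), and 0 higher. Lower KLF calls numbered 2, 2 and 3 without WT replicates 1, 2 and 3, and 0, 2 and 0 without clone 2 replicates 1, 2 and 3.

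Egfr, the receptor of epidermal growth factor (chromosome 11, 16752203 to 16918158, plus strand), had 24.4, 17.2 and 16.8 TPM in WT and 21.96, 20.6 and 19.6 TPM in clone 2, within the same range (log2 change 0.11, SE 0.16, limma adjusted p = 0.747). Its change in 6694c2 was -1.59, and the difference between the lines was 1.699 (limma adjusted p = 0.00103). Of the 12 tested genes of the receptor family and its ligands, Erbb3, a partner receptor, was called, falling from 25.6, 29.6 and 23.9 TPM to 9.96, 9.47 and 9.105 TPM (log2 change -1.38, SE 0.12, limma adjusted p = 0.00215). Among 16 enzymes that write or erase methylation of lysine 9, 1 (Kdm3a) fell and 3 rose: the sister demethylase Kdm3b by 0.37, Kdm4b by 0.61 and the methyltransferase Ehmt2 by 0.55, from 131 ± 13.6 to 193 ± 6.25 TPM. Of these enzymes, the number called higher was 2, 2 and 1 without WT replicates 1, 2 and 3, and 0, 0 and 0 without clone 2 replicates 1, 2 and 3. It was 1 under median-of-ratios scaling and 1 under quantile normalization.

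Immediate early genes, which cells switch on soon after a growth or stress signal, fell together. Of 26 genes 16 were called lower and 0 higher, with a median of -0.87. Fosb had 70.6, 81.6 and 86.6 TPM in WT and 7.26, 11.8 and 7.03 TPM in clone 2 (log2 change -3.08, SE 0.204, limma adjusted p = 0.00103). Atf3, a stress factor, had 74.8, 85.1 and 74.1 TPM in WT and 10.4, 11.1 and 13.4 TPM in clone 2 (log2 change -2.65, SE 0.12, limma adjusted p = 0.000371). Neither gene overlapped between the groups. The nuclear receptor Nr4a1 fell from 75.1 ± 6.69 to 12.5 ± 0.389 TPM (-2.49), and Fos, Egr1 and Junb fell by 1.64, 1.22 and 0.65. Myc (-0.18), Klf4 (0.04) and Klf6 (0.14) were not called. The number called lower was 16, 6 and 12 without WT replicates 1, 2 and 3, and 4, 7 and 5 without clone 2 replicates 1, 2 and 3. In 6694c2, 1 of the 26 was called higher and 1 lower, beside 10.3% and 4.33% of all tested genes. The difference between the lines was -2.99 for Fosb and -2.56 for Atf3 (limma adjusted p = 0.00131 and 0.000114).

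Of 22 genes of the ER stress response 7 were called lower and 1, Trib3 (0.63), higher, with a median of -0.495. Sdf2l1, a cofactor of the chaperone BiP, had 64.3, 67.98 and 82.2 TPM in WT and 35.9, 32.4 and 38.3 TPM in clone 2 (log2 change -0.98, SE 0.12, limma adjusted p = 0.00702). Hspa5, which encodes BiP, had 813, 488 and 709 TPM in WT and 385, 486 and 426 TPM in clone 2 and was not called (log2 change -0.61, SE 0.199, limma adjusted p = 0.101). The number called lower was 3, 4 and 4 without WT replicates 1, 2 and 3, and 1, 3 and 1 without clone 2 replicates 1, 2 and 3.

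Detoxifying enzymes changed in both directions. Of 23 NRF2-type antioxidant genes 7 were called higher and 5 lower, with a median of 0.31. The glutathione transferase Gsta1 had 59.8, 55.3 and 56.3 TPM in WT and 191, 251 and 191 TPM in clone 2 (log2 change 1.86, SE 0.12, limma adjusted p = 0.00109), above WT in every library. Gstm1 rose by 1.43 and Aldh1a1, which makes retinoic acid, by 1.94 from 20.3 ± 3.32 to 79.9 ± 6.61 TPM. Gpx2, a glutathione peroxidase of gut epithelium (chromosome 12, 76792333 to 76795554, minus strand), went the other way, with 66.5, 74.1 and 61.9 TPM in WT and 1.74, 1.56 and 1.9995 TPM in clone 2 (log2 change -4.63, SE 0.12, limma adjusted p = 0.000182). In 6694c2 Gpx2 changed by -2.196 (limma adjusted p = 0.00123), and the difference between the lines was -2.43 (limma adjusted p = 0.000269). The number called higher was 8, 6 and 6 without WT replicates 1, 2 and 3, and 4, 6 and 4 without clone 2 replicates 1, 2 and 3. Adh1, an alcohol dehydrogenase and one of the 12 largest rises, had 18.02, 19.3 and 9.795 TPM in WT and 104, 123 and 111 TPM in clone 2 (log2 change 2.81, SE 0.25, limma adjusted p = 0.00234).

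Other members of the 12 largest rises lie outside these lists. Hsd3b1, a steroid dehydrogenase, had 0.651, 1.88 and 0.883 TPM in WT and 11.5, 18.2 and 13.6 TPM in clone 2 (log2 change 2.87, SE 0.27, limma adjusted p = 0.00289). Ahsg, a secreted glycoprotein best known from liver, had 0.826, 0.261 and 1.04 TPM in WT and 9.19, 10.4 and 15.1 TPM in clone 2 (log2 change 2.88, SE 0.27, limma adjusted p = 0.00272). Both genes were under 2 TPM in every WT library and above 9 TPM in every clone 2 library. Gm7334, annotated as a processed pseudogene, was listed at 0 in all 3 WT libraries and at 13.3, 19.1 and 25.8 TPM in clone 2. Pseudogene reads can come from the parent gene, so its level is uncertain. The GTPase-type genes Gvin1 and Gm4951 rose by 2.95 and 2.79. Gm4951 was called without WT replicate 1 but not without any other library. Iigp1 and Cxcl9 were not called without clone 2 replicates 1, 2 or 3, nor Tgtp2 without replicate 1 or 3, nor Gvin1 without replicate 1, nor Cxcl9 without WT replicate 2.

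Several of the 12 largest falls that were not macrophage-linked were near complete. Urah, an enzyme of urate breakdown (chromosome 7, 140835018 to 140837966, plus strand), had 25.8, 28.9 and 26.7 TPM in WT and 0.165, 0.211 and 0.438 TPM in clone 2 (log2 change -4.47, SE 0.15, limma adjusted p = 0.0002304). Kcnk1, a potassium channel, had 15.02, 16.4 and 12.004 TPM in WT and 0.0349, 0 and 0.0308 TPM in clone 2, and the growth factor receptor Fgfr4 had 12.5, 11.8 and 9.77 TPM and 0.0248, 0.0632 and 0 TPM. For these genes the clone 2 libraries were close to 0. Gabrp, a subunit of the GABA receptor, fell by 5.195 from 80.2 ± 18.8 to 1.24 ± 0.636 TPM. Arhgef16 fell by 4.11, Pigr, which carries antibodies across epithelia, by 3.82, Htatip2 by 3.62 and the protease Tmprss4 by 3.52. Mir21a, a microRNA gene, was listed at 16.5, 12.4 and 12.05 TPM in WT and at 0 in clone 2. Libraries of long RNA measure such an entry poorly.

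In clone 1, compared with the same WT libraries, the change was -0.09 for Urah, 0.07 for Pigr, -0.31 for Htatip2 and -3.07 for Kcnk1. Clone 2 differed from clone 1 by -4.38, -3.89 and -3.31 for the first 3 (limma adjusted p = 3.99e-10, 1.24e-07 and 4.91e-08). In 6694c2 Kcnk1 changed by -1.74 (limma adjusted p = 0.00181) and Urah by -0.25 (limma adjusted p = 0.257). The 4 largest macrophage-linked falls were Cd163 (-5.07), Reg3b (-4.84), Cd209f (-4.701) and Folr2 (-4.59). Cd163, a scavenger receptor of tissue macrophages, had 27.2, 50.9 and 202 TPM in WT and 1.11, 0.626 and 1.27 TPM in clone 2. None of these 4 was called without clone 2 replicate 1 or 3, Cd209f and Folr2 were not called without clone 2 replicate 2, and Folr2 was not called without WT replicate 2.

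Signalling and secreted genes gave mixed results. Of 21 tested Wnt genes 7 were called lower and 3 higher, with a median of -0.303. The ligand Wnt7b had 37.99, 45.2 and 41.6 TPM in WT and 8.38, 12.98 and 11.98 TPM in clone 2 (log2 change -1.83, SE 0.17, limma adjusted p = 0.00289), the ligand Wnt4 fell by 1.66 and Rnf43, which removes Wnt receptors, by 1.21, and the receptors Fzd2 and Fzd6 rose by 0.902 and 0.79. For this list the number called lower was 6, 4 and 5 without WT replicates 1, 2 and 3, and 2, 4 and 2 without clone 2 replicates 1, 2 and 3. Of 22 chemokine and cytokine genes 6 were called lower and 3 higher. Beside Cxcl9 and Cxcl10, Csf1, the growth factor of macrophages, rose from 15.2 ± 2.005 to 28.2 ± 4.86 TPM (0.85, limma adjusted p = 0.0254), while the neutrophil attractants Cxcl2 and Cxcl3 fell by 2.69 and 1.22. The number of these called lower was 6, 2 and 4 without WT replicates 1, 2 and 3, and 1, 2 and 1 without clone 2 replicates 1, 2 and 3.

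Of 19 complement genes 6 were called higher and 8 lower. C2 had 30.9, 30.01 and 24.01 TPM in WT and 77.9, 77.6 and 72.5 TPM in clone 2 (log2 change 1.402, SE 0.12, limma adjusted p = 0.00195), C3 rose by 1.06, and the lower genes included the C1q chains C1qa (-3.35), C1qb (-3.38) and C1qc (-3.42), which are macrophage markers. The number called higher was 5, 4 and 4 without WT replicates 1, 2 and 3, and 2, 2 and 2 without clone 2 replicates 1, 2 and 3, and that called lower was 7, 1 and 8 without WT replicates 1, 2 and 3, and 0, 1 and 0 without clone 2 replicates 1, 2 and 3. Raet1d, a ligand of the receptor NKG2D, rose from 0.151, 0.215 and 0.624 TPM to 4.37, 6.18 and 3.89 TPM (log2 change 2.13, SE 0.24, limma adjusted p = 0.00518). Slc16a3, a lactate exporter, fell by 3.71 from 64.8 ± 9.69 to 4.08 ± 1.15 TPM and was macrophage-linked, and in 6694c2 it changed by -2.71 (limma adjusted p = 0.0104). Of 12 imprinted genes 5 were called lower, such as Phlda2 (-1.48). Lower imprinted calls numbered 5, 4 and 6 without WT replicates 1, 2 and 3, and 4, 4 and 3 without clone 2 replicates 1, 2 and 3, and 0 with the macrophage index as a covariate.

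Housekeeping and growth lists were counted in the same way. Of 36 cytosolic ribosomal protein genes 1 was called higher and 2 lower (median -0.01), of 36 respiratory chain genes 3 and 3 (0.07), of 30 proteasome genes 2 and 0 (0.08) and of 36 cell cycle genes 2 and 4 (-0.01). Of 26 hypoxia genes 3 were called higher and 4 lower, Kdm3a among the latter (median -0.09), beside 5.23% and 7.39% of all tested genes. With single libraries left out, 1 to 2 hypoxia genes were called higher and 0 to 3 lower. Of 32 genes of cholesterol and fatty acid synthesis 3 were called higher and 1 lower, of 17 genes of the p53 axis 0 and 2, and of 14 Notch genes 0 and 1.

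Changes also followed position on the chromosomes, a view taken after the data were seen. For each library and chromosome the median log2 level of its genes with a mean of 5 TPM or more that were not macrophage-linked was taken relative to WT. Chromosome 1 stood at -0.43, -0.37 and -0.42 in the clone 2 libraries, against -0.06 to 0.08 in WT, and 89.2% of its 544 genes were below WT. Chromosome 18 stood at 0.42, 0.46 and 0.41 in clone 2, against -0.06 to 0.0997 in WT. Chromosomes 8 and 10 were lower, with means of -0.24 ± 0.04 and -0.23 ± 0.01 (SD, n = 3). These 4 were described because they lay farthest from WT, so no test is given for them. The 3 clone 2 libraries also lay outside the WT range on chromosomes 5, 7, 9, 15 and 17, with means of 0.02 ± 0.02, -0.11 ± 0.03, 0.05 ± 0.01, 0.103 ± 0.01 and 0.18 ± 0.04 (SD, n = 3).

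In clone 1 chromosome 1 lay at -0.04 to 0.03 and chromosome 18 at -0.09 to 0.01. Of the 746 tested genes of chromosome 1, 170 were called lower (22.8%) and 5 higher. Of the 331 of chromosome 18, 86 were called higher (26.0%) and 11 lower. The 4 chromosomes together held 344 of the 969 lower calls and 114 of the 686 higher ones, among 2416 of the 13112 tested genes. Parts of other chromosomes shifted too. With genes in order along the chromosome and split into 4 blocks of equal gene number, the blocks of chromosome 7 stood at 0.11, 0.13, -0.3001 and -0.31, and those of chromosome 17 at 0.03, 0.01, 0.33 and 0.33. In clone 1 the same blocks stood at 0.03, -0.004, 0.04 and 0.01 on chromosome 7 and at 0.001, 0.05, 0.05 and 0.27 on chromosome 17, so the last block of chromosome 17 was above WT in both clones. Whole chromosomes also shifted in the 6694c2 knockouts, relative to the WT of that line. Chromosome 10 stood there at 0.19 to 0.24, chromosome 13 at -0.22 to -0.17 and chromosome 14 at -0.23 to -0.10, outside the WT range of that line. Chromosome 10 thus moved in opposite directions in the lines, and comparisons of genes between the lines include such shifts. DNA was not analysed here, and no cause of these shifts was tested.

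**Figure D5:**
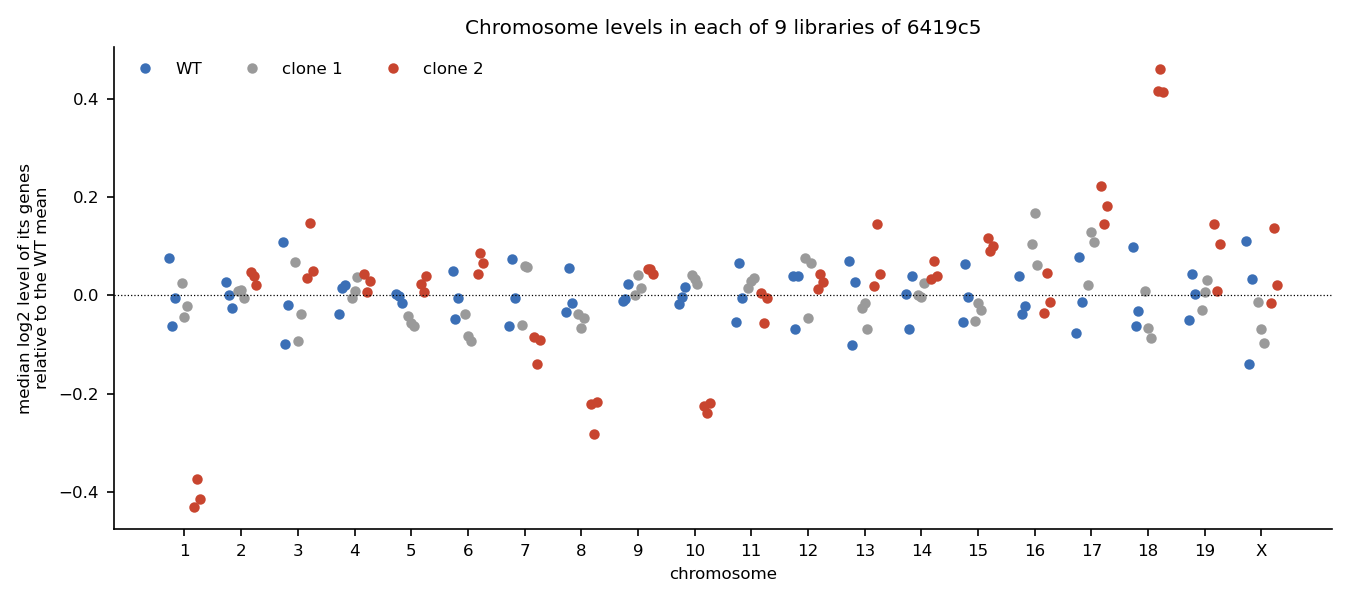
Median log2 level of the genes of each chromosome relative to WT (vertical axis) in the 9 libraries of 6419c5; points are libraries of WT, clone 1 and clone 2. The clone 2 libraries lie farthest from WT on chromosomes 1 (-0.43 to -0.37), 8, 10 and 18 (0.41 to 0.46), and also outside the WT range on chromosome 17 (0.15 to 0.22) and, by less, on 5, 7, 9 and 15.

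With the median shift of each block removed, 386 genes were called higher and 602 lower. Of the 27 interferon gamma genes 22 were then called higher, and 18 of the junction genes, 10 of the gastric genes and 12 of the immediate early genes were called lower. Kdm3a and the 29 other named genes that were called stayed called, among them Iigp1 and Gm4951 on chromosome 18 and Pigr on chromosome 1. Changes of single genes given above, such as those of Zeb1, Cdh2, Gata6, Kdm3b, Kdm4b and Ehmt2, were not corrected in this way. For a gene on a shifted block, such a change includes the shift of that block. Type I interferon genes called higher numbered 3, class I genes 4 and lysine 9 methylation enzymes 1. KLF genes called lower numbered 1, and cell cycle genes 0 higher and 0 lower.

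Calls were partly shared with the other line. Of the 686 genes called higher here, 134 (19.5%) were also called higher in the 6694c2 knockouts, 9.94% of the higher list of that line, and 31 (4.52%) were called lower there. Of the 969 called lower, 151 (15.6%) were also called lower there, 26.6% of the lower list of that line, and 75 (7.74%) were called higher. Over all tested genes, 10.3% were called higher and 4.33% lower in 6694c2. Without macrophage-linked genes the shared calls were 119 higher and 143 lower. Epcam, Erbb3, Klf5, Krt7 and Lamb3 were called lower in both. Foxa1 changed by -2.11 here and -0.04 there, and the difference was -2.07 (limma adjusted p = 0.000552).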

How the data were processed

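RNA was sequenced in 18 libraries, 3 in each of 6 groups, and 6 of them make this comparison. The authors deposited TPM, made with Salmon on mm10 per the submitters' processing notes; the version, the annotation and the summing to genes are not given in the sources used here. The name of the table includes the word batch, which no label explains, so whether values were adjusted between batches is unknown. Columns letter the clones A and B, taken as clones 1 and 2. Each column sums to 1e+06, so no count model was fitted.

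Values were analysed as log2(TPM + 1), which understates changes of low genes. limma 3.58.1 in R 4.3.3 (eBayes with trend, 4 residual degrees of freedom) gave p-values, adjusted by Benjamini-Hochberg over 13112 genes, and genes under 0.05 were called. Clone 2 against clone 1 and the difference between lines came from a 6-group model of 18 libraries, and the 6694c2 effect from its own 9. Named genes are Kdm3a, Klf5 and Egfr, the 12 largest called rises, the 12 largest called falls that were not macrophage-linked and the 4 largest linked falls, all without overlap of the groups and reaching 5 TPM on average in 1 group. Other genes are members of 47 gene lists. Members, lists and rules were chosen with earlier results of these data known. Positions are from GENCODE M21 (GRCm38), promoters from RefSeq GRCm38.p6. On simulated data of 13112 genes for this comparison the test recovered 51% of genes changed 2-fold and 88% of those changed 4-fold, and 4.1% of its calls were false. The simulation drew each gene independently with normal noise and changed only genes above a low level. It held no shift of chromosomes or of macrophage RNA, so 4.1% is not the false share of the calls given here. A few list members are not reported here. Alternatives covered the pseudocount, filter, scaling, model, covariate, replicate block and each library left out.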

Additional observations from a re-analysis of the deposited data

Results flagged for a closer look

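Of the 31 named genes, 22 changed differently in 6419c5 clone 2 than in the knockouts of 6694c2, by the interaction term of the 6-group model (limma, adjusted p under 0.05 over 13112 genes; 21.6% of all genes pass this test). All but Kdm3a, Klf5 and Egfr were named for a large change in clone 2, which is part of this contrast. The high share among them follows in part from that choice and is not a result about the lines. Values are the log2 change of clone 2 minus that of the 6694c2 knockouts.

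Among genes that fell in clone 2, the difference was -5.51 for Gkn3, -5.11 for Gkn1 and -3.98 for Reg3b. It was -3.98 for Gabrp, -4.22 for Urah, -4.36 for Pigr, -4.17 for Htatip2 and -3.82 for Arhgef16. Fgfr4 differed by -3.001, Tmprss4 by -3.13, Gpx2 by -2.43 and Kcnk1 by -2.17. In 6694c2 alone Gpx2 changed by -2.196, Kcnk1 by -1.74 and Pigr by 0.54. Mir21a, listed at 0 in clone 2, differed by -5.37, a fitted value that depends on the pseudocount.

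The macrophage genes Cd163, Cd209f and Folr2 differed by -5.67, -5.79 and -5.97. Of the rises, Hsd3b1 differed by 2.91, Adh1 by 2.45, Ahsg by 2.17, Cxcl9 by -1.99 and Tgtp1 by -1.39. Egfr, not called in clone 2, differed by 1.699.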

How the results depend on the processing

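No called gene among those named changed sign under the alternatives run. Egfr, which was not called, was 0.11 and turned to -0.35 with the macrophage index as a covariate (limma adjusted p = 0.662). Lower calls outnumbered higher ones except under quantile normalization, with 755 higher and 677 lower. The counts of 686 higher and 969 lower genes moved by more than 1.5 times in these settings: 1087 and 1483 in the 6-group model over 18 libraries, 386 and 602 with chromosome blocks centred (added after seeing the data), and 1 and 15 with the macrophage index as a covariate, where 22 of the 29 named calls beside Kdm3a were lost and Kdm3a was -1.22 (limma adjusted p = 0.3895). Leaving out single libraries gave 117 to 583 higher and 224 to 806 lower genes, and -1.22 to -0.8998 for Kdm3a in clone 2 against WT. Replicate numbers are shared between the groups, but the values show no pairing by number. Deviations of same-numbered libraries from their group means correlated at -0.32, -0.37 and 0.17. Differently numbered libraries of the groups ran from -0.30 to 0.46, the highest being WT replicate 1 with clone 2 replicate 2, and what they share was not tested. The fit with a replicate block gave 35 higher and 127 lower genes, and -1.04 for Kdm3a (limma adjusted p = 0.152). It lost 12 of the 29 named calls beside Kdm3a, among them Iigp1, Gbp2, Tgtp1, Tgtp2, Cxcl9, Gvin1 and Klf5. The causes were not tested. TPM give no depth, so no limit from depth can be stated.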

Other observations

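Genes outside the lists and the naming rule, chosen after their values were seen, are given here as values. The heat shock gene Hspa1a had 35.5, 49.4 and 66.2 TPM in WT and 4.92, 5.02 and 4.88 TPM in clone 2 (log2 change -3.07, SE 0.22, limma adjusted p = 0.00137), and Hspa1b 187, 238 and 196 TPM and 47.5, 48.4 and 51.9 TPM (log2 change -2.04, SE 0.11, limma adjusted p = 0.000593). The clone 2 libraries were close to each other for both genes and below WT. Their sequences are near-identical, so the split of reads between them is uncertain.

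The protease genes Mcpt1, Mcpt2, Mcpt4 and Mcpt8, best known from mast cells and basophils, were called lower and were not macrophage-linked. Mcpt4 had 114, 116 and 132 TPM in WT and 25.03, 24.4 and 22.9 TPM in clone 2 (log2 change -2.28, SE 0.09, limma adjusted p = 0.0002602), and Mcpt1, Mcpt2 and Mcpt8 changed by -2.26, -1.64 and -2.16. In 6694c2, Mcpt8 changed by -1.95 and Mcpt4 by 0.797.

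Adh7, an alcohol dehydrogenase like Adh1, had 27.999, 22.9 and 16.9 TPM in WT and 116, 141 and 104 TPM in clone 2 (log2 change 2.38, SE 0.203, limma adjusted p = 0.00215). Aldh1a7 rose by 1.59 and the carboxylesterase Ces3a by 2.72. In 6694c2 the changes of Adh7, Aldh1a7 and Ces3a were -0.62, -0.27 and 0.11.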
